A study of Mus musculus with 30 samples.

Results

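The sites described here are stretches of chromatin in mouse tail-tendon fibroblasts that lie away from promoters, gained signal with doxycycline, and lost signal when the myosin inhibitor blebbistatin was given together with doxycycline. They were chosen from the authors' deposited tables of differential sites. A site had to be annotated as intronic or intergenic, to have a higher mean level with doxycycline than with neither drug, and to overlap by at least 1 bp a site that was lower with both drugs than with doxycycline alone. There were 1927 such sites, called member sites, among the 7613 rows of the doxycycline table and the 16367 rows of the 5 tables of the series. They made up 34.7% of the 5553 distal sites that gained signal with doxycycline and 31.8% of the 6065 distal sites that blebbistatin lowered in its presence. Of them, 873 lay in introns and 1054 were intergenic.

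The study is about mechanical cues in tendon fibroblasts and the co-regulators Yap and Taz. All 30 libraries came from primary fibroblasts labelled wildtype, kept during treatment in medium with 0.1% serum, with 3 libraries in each of 10 groups. The choice of sites used 3 groups of 1 experiment: neither drug (labelled DMSO), doxycycline at 10 ng/mL, and doxycycline with blebbistatin at 10 µM. A group with blebbistatin alone completed that experiment. Separate ATAC and poly(A) RNA libraries were made without doxycycline from cells given DMSO, 10 µM blebbistatin or 30 µM Y27632, a kinase inhibitor that lowers contractility. What doxycycline induced in these cells is not given in the sources used here, and neither is a transgene or its promoter. The only protocol named for genomic DNA is ATAC, in which a transposase cuts open chromatin. Whether replicates came from separate animals or cultures is not stated either, so p-values measure the spread between these libraries, which may be technical.

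Yap and Taz are transcriptional co-activators without a DNA-binding domain of their own. They reach chromatin mainly through the TEAD factors, whose motif contains GGAATG, and much of their binding is at distal enhancers. In fibroblasts they are more active when the actomyosin cytoskeleton is under tension. The Hippo kinases can keep them out of the nucleus. Blebbistatin blocks the motor activity of non-muscle myosin II, and Y27632 lowers contractility further upstream, at the kinase that promotes myosin phosphorylation. Among the known targets of Yap and Taz in fibroblasts are genes for secreted matrix-associated proteins such as Ccn1 and Ccn2.

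The following sequences show what TEAD letters at member sites look like. They are 9 examples, picked after the values were seen, of the 10-base motif matches in the authors' ATAC blebbistatin table, at member sites that this table and the Y27632 table also list as lower. Further matches at such sites, near Adcy1, Bod1l, Tbc1d2b and a second at Capn2, are not printed. Capitals mark GGAATG, and each sequence is read 5′ to 3′ on the strand given, in mm10.
Nt5c1b site, chr12:10169605-10169614, plus strand: aGGAATGctt
Mir710 site, chr8:64582997-64583006, plus strand: aGGAATGtat
Papss1 site, chr3:131498885-131498894, plus strand: aGGAATGcaa
Papss1 site, chr3:131498895-131498904, minus strand: aGGAATGtgt
Col28a1 site, chr6:8135679-8135688, plus strand: aGGAATGtga
Meis1 site, chr11:18590713-18590722, minus strand: tGGAATGtct
Ccn1 site, chr3:145702897-145702906, plus strand: tGGAATGcag
Capn2 site, chr1:182515024-182515033, plus strand: aGGAATGtgt
7630403G23Rik site, chr9:34233664-34233673, plus strand: aGGAATGcag
The 2 Papss1 matches are next to each other on opposite strands. Each site is named for the gene with the nearest transcription start in the authors' annotation, which says nothing of which gene a site acts on. The Ccn1 match lies 18 bases from the middle of an intergenic site 52935 bp upstream of Ccn1, which encodes a secreted matricellular protein.

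Of the 1927 member sites, 3 overlapped a RefSeq promoter window (GRCm38.p6). One of them is shown because it holds several of the motifs searched. It is annotated to an intron, 35340 bp from the start of Pax8, and overlaps the window of Gm13415 on the plus strand. The letters are the 256 bases shared by site and window, and the site itself starts before them, at 24440120. Capitals mark GGAATG, the AP-1 motif TGANTCA and the C/EBP motif TTGCNNAA, on either strand.
Pax8 site, chr2:24440143-24440398, plus strand: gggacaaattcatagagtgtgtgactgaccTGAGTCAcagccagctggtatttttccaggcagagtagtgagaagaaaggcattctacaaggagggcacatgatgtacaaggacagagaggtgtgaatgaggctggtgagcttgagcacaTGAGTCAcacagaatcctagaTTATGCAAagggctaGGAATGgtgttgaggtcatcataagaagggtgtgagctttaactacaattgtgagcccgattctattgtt
In the authors' deposited tables the level of the whole site was 5.62 with neither drug, 6.63 with doxycycline and 4.88 with both. The other motifs searched, RUNX (TGTGGTT), the NFI palindrome, ETS (CCGGAAGT), the longer TEAD form TGGAATGT and the CArG box, are not in these letters. Of all 32851 promoter windows, which run from 250 bases before to 50 after a start, 14.7% held GGAATG, 7.81% TGANTCA, 10.8% TTGCNNAA, 5.27% TGTGGTT, 0.0365% the NFI palindrome, 3.89% CCGGAAGT, 1.35% TGGAATGT and 1.63% a CArG box. The stretches that the member sites nearest Nmur2 and Stac share with a window, 184 and 175 bases long, held none of the motifs. A match is a string of letters and not a measured binding site.

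At the member sites the median level was higher with doxycycline and close to that of neither drug once blebbistatin was added. Levels are the authors' log2 group means, so there is 1 value per group and site, without a spread over libraries. In the authors' deposited tables the median level was 4.83 with neither drug (quartiles 4.29 and 5.46), 6.15 with doxycycline (5.63 and 6.76) and 4.94 with both drugs (4.39 and 5.58). The log2 fold with doxycycline had a median of 1.26 and ran from 1 to 3.91. That of adding blebbistatin had a median of -1.17 and ran from -1 to -2.42. These values chose the sites and are a description. Of all sites tested, 8.97% were listed as higher with doxycycline and 8.73% as lower with blebbistatin in its presence. Both tables use the same doxycycline libraries, and the doxycycline level differed by 0 between them at the 1688 member sites that have the same start and end in both. At the other 239 the level with both drugs is that of an overlapping site with other bounds.

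The level with both drugs, set against that with neither, shows how far each site returned. In the authors' deposited tables the median difference was 0.08 on the log2 scale (quartiles -0.08 and 0.28), and the loss was a median 94.0% of the gain. At 1230 sites (63.8%) the levels with both and with neither drug lay within 0.25 of each other. At 712 sites (36.9%) the level with both drugs was below that with neither, at 40 of them by 0.5 or more. At 210 sites (10.9%) it was 0.5 or more above, and at 32 of these 1 or more. The median was 0.08 in introns and 0.075 between genes. The choice of sites largely sets this return. Only absolute log2 folds of 1 or more are listed, so a site with the median gain of 1.26 had to lose at least 1. Both folds also use the same doxycycline mean. These differences come from group means and were not tested.

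**Figure D1:**
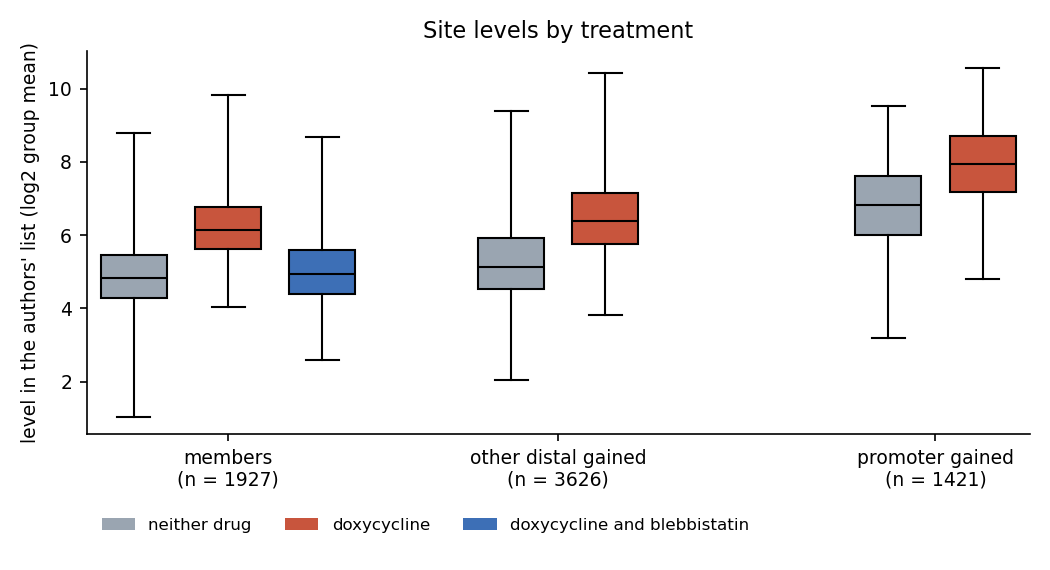
Authors' log2 group means of the 1927 member sites with neither drug, with doxycycline and with both drugs, beside the 3626 other distal and 1421 promoter sites that gained signal with doxycycline (boxes, quartiles and median; whiskers, the whole range). The member sites return from a median of 6.15 to 4.94, close to the 4.83 of neither drug, and promoter sites start highest, at 6.83. The choice of the member sites used these levels.

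The other distal sites that gained signal, for which no loss with blebbistatin was listed, started a little higher. In the authors' deposited table their median level was 5.14 with neither drug and 6.39 with doxycycline, and their median log2 fold was 1.17, up to 3.73. Promoter sites were stronger, at 6.83 and 7.95, with a median log2 fold of 1.09. Only 35 of the 1421 promoter sites that gained signal (2.46%) overlapped a site that blebbistatin lowered. Annotation is part of the choice of sites, so this share is a description.

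The 5 largest gains stayed well above neither drug once blebbistatin was added. Their pick by gain largely sets this, since the losses of all members had quartiles of -1.305 and -1.07. Their levels with neither drug, 1.04 to 3.16, were below the member median of 4.83, and the part of low levels in these folds was not tested. As the authors' deposited tables give them, the intergenic sites on chromosome X at 83895 and 83602 bp upstream of 4930503H13Rik had log2 folds of 3.55 and 3.91 with doxycycline, and levels of 2.12 and 1.04 with neither drug. Blebbistatin lowered them by log2 folds of -1.14 and -1.45, which left them 2.40 and 2.46 above neither drug. An intronic site 57551 bp upstream of Cavin2, which encodes a caveolar coat protein, went from 1.99 to 5.51 with doxycycline and to 4.08 with both drugs in these tables. Intergenic sites nearest Rgs18, a regulator of G protein signalling, and Tnfsf18, a cytokine, gained 3.25 and 2.88 and ended 1.90 and 1.81 above neither drug. The Rgs18 site is annotated to a simple repeat. A gain of 2 or more was listed at 77 members and a loss of 2 or more at 11.

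The 5 largest losses were at other sites, and their pick by loss likewise favours a low level with both drugs. An intergenic site nearest Wincr1 went from 3.12 with neither drug to 5.01 with doxycycline and 2.59 with both in the authors' deposited tables, a log2 fold of -2.42 with blebbistatin. An intronic site 18445 bp from the start of Ivns1abp, on a SINE repeat, had a log2 fold of -2.16 and a level of 3.36 with both drugs, under the 4.22 of neither. Intergenic sites near Tmeff2 and Ncam2 had folds of -2.14 and -2.11, and their level with both drugs minus that with neither was -0.87 and -1.04. A site in intron 3 of a non-coding transcript near Olfr1437 rose from 3.44 to 5.6 and returned to 3.48. Just inside the thresholds, 38 members had a gain of 1 and 74 a loss of -1, and sites under these folds are not in the tables analysed here.

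**Figure D2:**
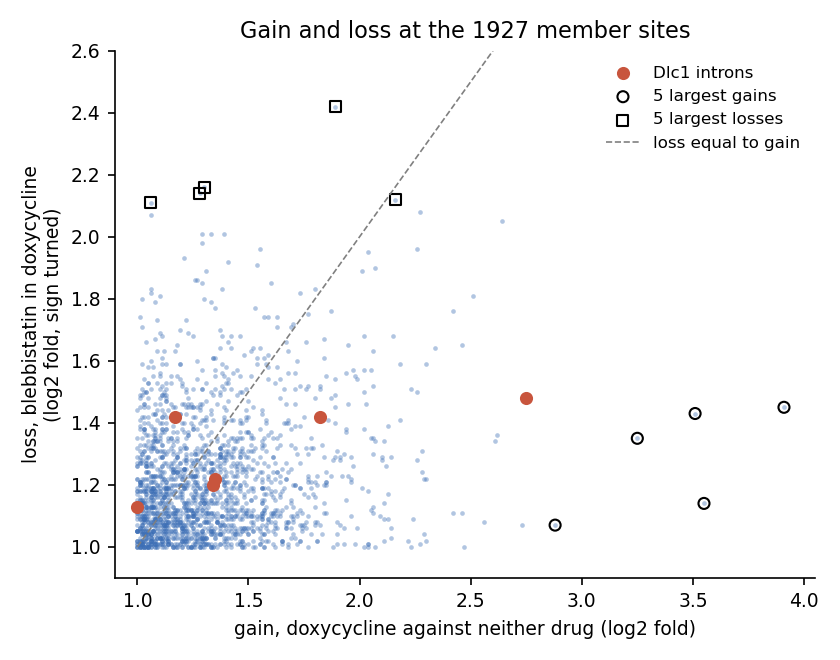
Gain with doxycycline (x axis) against loss with blebbistatin in doxycycline (y axis, sign turned), both authors' log2 folds, for the 1927 member sites. The 5 largest gains, 2.88 to 3.91, lie far to the right of the line of equal gain and loss. The 5 largest losses, with folds of -2.11 to -2.42, lie close to the line or above it. Both were picked by these same folds, so their places are a description. The 6 sites in Dlc1 introns range from 1 to 2.75 in gain.

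Member sites were short and lay far from genes' starts. Their median width was 222 bp, and their median distance to the nearest transcription start was 48680 bp in the authors' annotation. The other distal gained sites had medians of 239 bp and 32443 bp. Of members 14.7% lay within 10 kb of a start and 49.3% more than 50 kb away, against 22.6% and 38.4% of the others. Distal sites that blebbistatin lowered outside the doxycycline table had a median distance of 47204 bp. Repeats held 26.4% of members and 20.9% of the other distal gained sites. LINE elements, long retrotransposon copies, held 8.87% against 4.36%, and LTR elements 9.76% against 9.57%. Of the distal sites lowered outside the doxycycline table, repeats held 23.1%, LINE elements 6.31% and LTR elements 8.07%. These shares were not tested, since neighbouring sites are not independent.

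**Figure D3:**
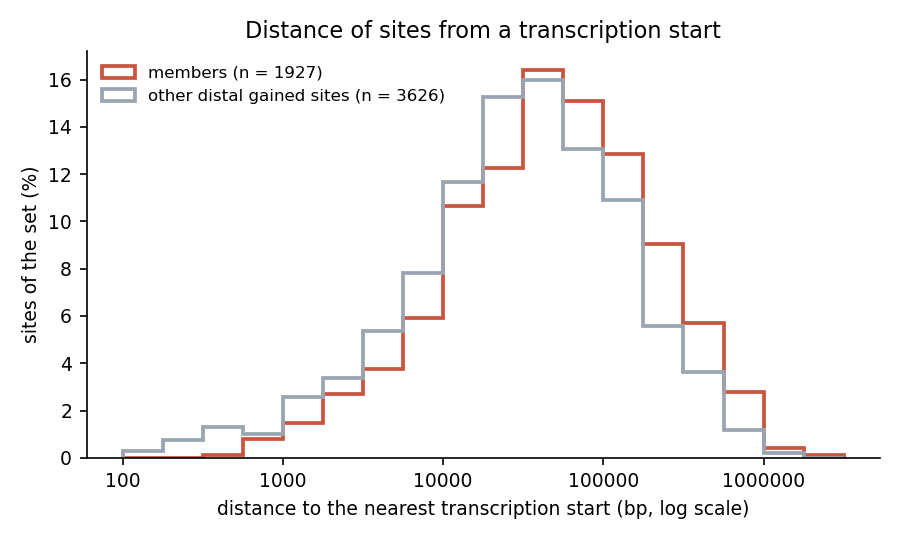
Distance to the nearest transcription start (x axis, log scale) of the 1927 member sites and the 3626 other distal gained sites, as a histogram in percent of each set. The member outline lies to the right, with medians of 48680 against 32443 bp.

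Several genes were the nearest gene of 4 or more member sites. These sites could lie far apart. Another site of the same set lay within 10 kb for 9.81% of members. This share was 16.6% for the other distal gained sites. For distal sites that blebbistatin lowered outside the doxycycline table it was 13.0%. The sets differ in size, and these shares were not tested. The 1927 sites were nearest to 1541 named genes, of which 1248 had 1 site, 220 had 2, 60 had 3, 9 had 4, 3 had 5 and 1 had 6. Dlc1, which encodes a GTPase-activating protein, had 6, all of them in its introns 4 and 5, out of 14 distal sites that gained signal there. The authors' deposited tables put the 6 at 4.88, 5.10, 5.26, 4.94, 5.33 and 6.01 with neither drug and at 5.88, 6.92, 6.61, 6.29, 8.07 and 7.17 with doxycycline. With both drugs they were at 4.75, 5.50, 5.40, 5.07, 6.59 and 5.75. The site that gained most, 2.75 on the log2 scale, was also the one that stayed highest, 1.26 above neither drug, and the 5 others ended between -0.26 and 0.40 from it.

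Flrt3, a cell adhesion and guidance receptor, and Tlr4, an innate immune receptor, had 5 member sites each. The Flrt3 sites were spread over 644453 bp inside introns of another gene, with gains of 1.04 to 1.72 in the authors' deposited table. Those of Tlr4 were intergenic, and the one farthest from its start, at 372321 bp, went from 3.77 to 5.78 with doxycycline and to 3.89 with both drugs. Jag1, a Notch ligand, and Fgf9, a fibroblast growth factor, each had 4 sites more than 300 kb from the start. The 4 Fgf9 sites had nearly equal gains, 1.20 to 1.27, and ended between 0.21 below and 0.10 above neither drug. Ptger4, a prostaglandin E receptor, had 4 sites within 111339 bp upstream, and Cobl, an actin nucleator, had 4 in its introns, one of them 824 bp from its start.

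A further group of 5 was assigned to Btn2a2 on chromosome 13, which together span 5980 bp, and 4 of them fell on repeats of the tRNA class in the authors' annotation. According to the authors' deposited tables the sites on tRNA-Trp, tRNA-Met-i, tRNA-Arg and tRNA-Ser copies gained 1.62, 1.42, 1.59 and 1.59 with doxycycline and changed by -1.07, -1.64, -1.09 and -1.23 with blebbistatin. Across all members 7 sites lay on repeats of this class, of 23 in the doxycycline table, a group chosen after its values were seen. Such repeats exist in near-identical copies, and how reads that match several copies were treated is not given in the sources used here, so these values are uncertain.

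Among the genes of the lists examined, 20 member sites were nearest to 9 of 30 Yap/Taz target genes. They were 37.7% of the 53 distal gained sites assigned to that list, against 34.7% for all distal gained sites, so the list had about the usual share. Dlc1, described above, is one of the 9. Ccn2, which encodes a secreted matricellular protein like Ccn1, had 3 sites, in introns of a transcript upstream of it, at 5975, 116037 and 150247 bp from its start. In the authors' deposited tables the nearest went from 6.12 with neither drug to 7.37 with doxycycline and 6.26 with both, and the 2 others from 6.27 and 6.18 to 7.34 and 7.55, and back to 6.29 and 6.31. The Ccn1 site went from 6.33 to 7.60 and 6.56. Asap1, an Arf GTPase-activating protein, had 4 sites with gains of 1 to 1.29. Rbms3, an RNA-binding protein, had 2, and Crim1, a transmembrane protein that binds BMPs, Ddah1, a dimethylarginine hydrolase, Ptpn14, a phosphatase that binds Yap, and Igfbp3, an IGF carrier, had 1 each.

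Of the genes of the Hippo pathway itself, Fat1, a giant cadherin, had 3 member sites, and Sav1, the scaffold of the Hippo kinases, Ptpn14 and Amot, which binds Yap, had 1 each. The Sav1 site lies in an intron of another gene. That was 6 of 26 distal gained sites of the list (23.1%). The Amot site rose from 2.83 to 4.90 with doxycycline in the authors' deposited tables and stayed 1.08 above neither drug with both. Of the AP-1 factors, Fos had 1 member of the list's 8 distal gained sites, 32091 bp upstream, which went from 3.85 to 4.88 and 3.57. Acta2, the smooth muscle actin of contractile fibroblasts, had the single member of 9 distal gained sites of the actin and SRF list. It lies 10494 bp upstream of the start and went from 7.53 to 8.58 and 7.58 in these tables.

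Genes of the extracellular matrix were also among those nearest to member sites. In the structural list 10 of 25 distal gained sites were members (40%), nearest to Col5a2 and Col11a1, which encode chains of fibrillar collagens, Fbn1 and Fbln2 of the microfibrils, the collagen crosslinking enzyme Lox, Tnc and Col14a1. A site in intron 1 of Col5a2 went from 3.47 to 5.52 and 4.18, and an intergenic one 95789 bp upstream from 4.86 to 5.94 and 4.27, in the authors' deposited tables. The Lox site, 23483 bp from the start, went from 4.33 to 5.45 and 4.39. In the list of proteases and their inhibitors 8 of 16 were members (50%), at the aggrecanase Adamts5 (2), Adamts12 (2), Adamts2, Adamts6, and the inhibitors Timp3 and Serpine2. The 2 Adamts5 sites rose from 6.33 and 5.24 to 7.45 and 6.43 and ended lower than with neither drug, at 6.17 and 5. In the TGF-β and BMP list 3 of 17 were members (17.6%), near Nog, a BMP antagonist, Smad3, a TGF-β signal transducer, and Bmp4, a BMP ligand. In the adhesion list 8 of 24 were (33.3%), near the integrins Itgb1 and Itgb8, the tensins Tns1 and Tns3, and Cdh11, a cadherin of mesenchymal cells. The lists were small, and no share was tested.

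The ATAC libraries of the cells without doxycycline were not used in the choice. In the authors' deposited table of blebbistatin against DMSO, 98 member sites (5.09%) overlapped a site that was lower, where 1.52% of all sites tested were listed as lower. For the other distal gained sites the share was 4.61% (167 sites), and for promoter sites 3 of 1421 were listed. Of distal sites that blebbistatin lowered outside the doxycycline table, 2.88% were listed. In the table of Y27632 against DMSO 32 members (1.66%) were lower, with 0.285% of all sites tested lower, and the shares of the 3 other sets were 0.745%, 0% and 0.532%. No member, and no site of the 3 other sets, overlapped a site that was higher in either table, which hold only 17 and 31 higher sites. The 2 tables share their DMSO libraries, so their overlap is not read. The shares were not tested, since sites are not replicates.

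**Figure D4:**
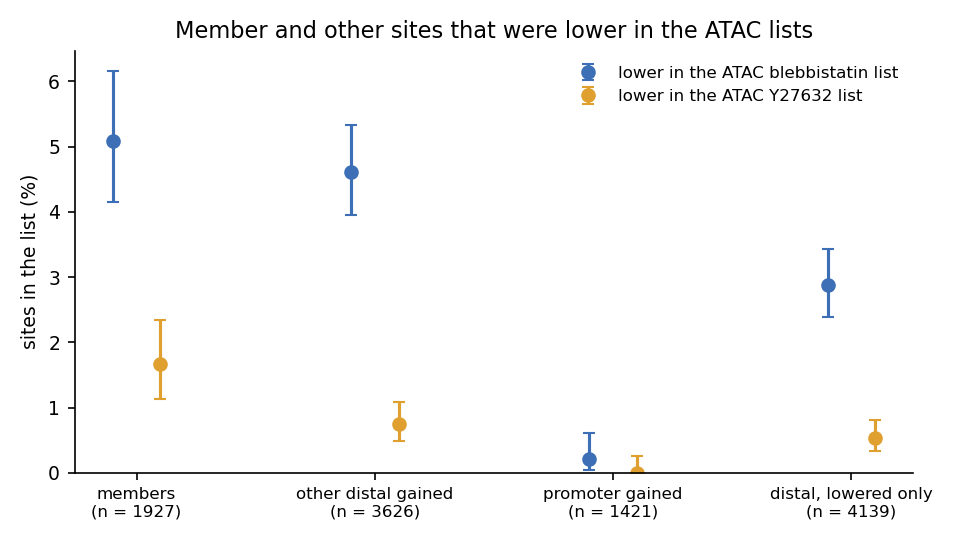
Percentage of sites of each set that overlap a site lower with blebbistatin or with Y27632 in the ATAC tables (points, with exact 95% binomial intervals as bars, which cover counting error only). Members are at 5.09% and 1.66%, other distal gained sites at 4.61% and 0.745%, and promoter sites at or near 0.

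The 98 members in the ATAC blebbistatin table had higher levels and were wider. Their median level with doxycycline was 7.15 and their median width 319.5 bp, against 6.06 and 216 bp for the 1753 members in none of the 3 other tables, by the authors' deposited values. Their gains (median 1.21) and losses (-1.15) were close to those of these other members (1.26 and -1.17). The part of level and width in being listed was not tested. The ATAC log2 folds of the 98 had a median of -1.64 and ran from -1.28 to -2.52. Across these 98 sites, which come from separate libraries but share the sequence and width of each site, the loss in doxycycline and the ATAC fold were weakly related (Pearson's r 0.22, Spearman's coefficient 0.19).

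At single sites the values of the experiments can be set side by side. The strongest ATAC decrease among members was at an intergenic site 200474 bp upstream of Nt5c1b, where the authors' deposited tables give log2 folds of -2.52 for blebbistatin and -1.71 for Y27632. With doxycycline it rose from 5.89 to 7.02, and with both drugs it was at 5.82. A site near Mir710 had ATAC folds of -2.38 and -2.05 and ended 0.72 under neither drug after a gain of 1.10. The Ccn1 site had ATAC folds of -1.61 and -1.37, and the Acta2 site -1.63 and -1.29. Of 2 sites in introns 11 and 3 of Col28a1, a collagen gene, one had folds of -1.96 and -1.32 and the other -1.48 and -1.53. A site in an intron of Bdnf, a neurotrophin gene, 1847 bp from the start, had -2.09 and -1.48, and one in intron 1 of Capn2, a calpain, had -1.46 and -1.29. The site near 7630403G23Rik was lowered more with Y27632 (-2.10) than with blebbistatin (-1.55), and after a gain of 2.47 its level with both drugs stayed 1.46 above that of neither. Folds of the 2 tables share DMSO libraries, and their difference was not tested.

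Blebbistatin without doxycycline was measured in the same experiment, and its table shares the libraries with neither drug with the doxycycline table. For that reason the overlap is not read as a result, and 1.77% of all sites tested were lower there. At the 114 members it lists as lower, the authors' deposited table has log2 folds from -1.01 to -2.08, with a median of -1.25. At the same sites the median fold of blebbistatin in doxycycline was -1.14 and that of doxycycline 1.19. Dlc1, with -1.32 at the site of intron 4, Acta2 (-1.12), Ccn1 (-1.36), Adamts5 (-1.49) and Bdnf (-1.47) were among them.

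The TEAD motif column of the ATAC blebbistatin table gives sequence at some members. Of the 100 lower ATAC sites that overlapped a member, 59 (59.0%) had at least 1 match in the authors' deposited table, against 544 of the 853 other lower sites (63.8%). Matches with GGAATG were at 44.0% and 46.8%, and with TGGAATGT at 16% and 13.5%. These 2 letter strings were chosen after the files were seen. The 2 groups had median widths of 267.5 and 255 bp and a median GC content of 41.9% and 45.0%. The exact 95% binomial interval of the first share was 48.7% to 68.7%, which covers counting error only. Sites are not replicates, and the difference was not tested. Of the 98 members, 42 held GGAATG within their own bounds, in 52 matches that lay a median of 54 bases from the middle of the site. Sequence at the other members was not analysed here.

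RNA was measured in the cells without doxycycline, so it shows how the genes nearest to member sites respond to the inhibitors alone. In the label check, 10 of 10 fibroblast markers and 7 of 8 tendon markers had a mean above 100 normalised counts in each group. All 6 of 6 macrophage markers did too, so this count does not set fibroblasts apart from macrophages. Of the endothelial, adipocyte and chondrocyte markers 1 each did, and of the muscle and keratinocyte markers none did. The muscle genes Myod1 and Ckm and the keratin gene Krt1 were at 0 in all libraries. The summed level of the 10 fibroblast markers was 1033610 to 1097310 in DMSO and 989282 to 1064510 with blebbistatin, and overlapped with Y27632 too. That of 6 macrophage markers was 5912 to 6494 in DMSO and 8329 to 9363 with blebbistatin, and 6137 to 6751 and 8795 to 9978 in the Y27632 table. Sums over different genes are not shares of cells. The 6 endothelial markers summed to 3196 to 3279 in DMSO and 2071 to 2332 with blebbistatin, and to 3321 to 3404 and 3013 to 3222 in the Y27632 table. Chondrocyte markers summed to 137 to 166 in DMSO and 211 to 230 with blebbistatin, and to 142 to 172 and 224 to 232 in the Y27632 table. Adipocyte markers were at 277 to 316 and 182 to 218 in the Y27632 table and overlapped with blebbistatin. Tendon markers were at 527145 to 570629 in DMSO and 468469 to 520274 with blebbistatin, and overlapped with Y27632. Muscle markers were at 38.7 to 51.7 and 22.1 to 35.4 in the blebbistatin table. The part of these markers in the results was not tested, and in bulk RNA fewer cells of a type and less RNA per cell cannot be told apart. Of the 1541 nearest genes 1525 were in the RNA tables, 37 of them under an older symbol (Ccn1 as Cyr61, Ccn2 as Ctgf), and 1009 passed the filter of a mean of 10 normalised counts with blebbistatin and 1004 with Y27632.

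With blebbistatin, more of these genes were lower than higher. Of the 1009, limma called 420 lower (41.6%) and 243 higher (24.1%) at an adjusted p under 0.05, where 26.9% and 26.1% of all 14882 genes tested were called. Their median log2 change was -0.08, against 0.00 over all genes. Genes nearest only to other distal gained sites had 36.7% lower and 27.9% higher and a median of -0.04. Among the 185 tested genes with 2 or more member sites 102 were lower (55.1%) and 29 higher (15.7%), with a median of -0.24. No set of genes with 2 or more other distal gained sites was formed. The number of member sites can therefore not be told apart from the number of distal gained sites. The linked genes also had more RNA, with a median of the mean level of 829 normalised counts against 565 over all genes, and the part of level in the calls was not tested. With Y27632, 295 of 1004 were lower (29.4%) and 214 higher (21.3%), where 17.8% and 18.1% of all 14833 were called. The median was -0.04, against 0.00 over all genes, and -0.03 without DMSO replicate 2. Both comparisons use the same DMSO libraries.

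The genes with most sites moved in different ways. Dlc1 had 3401, 3477 and 3126 normalised counts in DMSO and 2002, 2034 and 2025 with blebbistatin. The groups did not overlap, and the log2 change was -0.72 (SE 0.042, limma adjusted p 2.65e-08). With Y27632 its level was 3269, 3346 and 3627 against 3535, 3610 and 3248, groups that overlap, and the change of -0.02 was not called (adjusted p 0.762). Jag1 fell from 729, 796 and 669 to 329, 339 and 359 with blebbistatin, a change of -1.09 (SE 0.072), and Flrt3 changed by -0.63. Both were also lower with Y27632, at -0.46 and -0.43. Tlr4 rose with blebbistatin by 0.34 (adjusted p 1.21e-05). Ptger4 did not pass with blebbistatin (-0.01, adjusted p 0.958) and rose with Y27632 from 187, 198 and 203 to 483, 375 and 573, by 1.26 (SE 0.122). Cobl changed by -0.53 and -0.58, and the first was not called without DMSO replicate 2 (adjusted p 0.0520). Fgf9, at a mean of 25.9 normalised counts in DMSO, was not called with either inhibitor, except with blebbistatin without DMSO replicate 1 (adjusted p 0.0363). Btn2a2 and Cntnap2, with DMSO means of 0.714 and 2.22, were not tested, and Mir710, Gm20740 and 4933433F19Rik were at 0 in every library.

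The Yap/Taz targets with member sites were lower with blebbistatin in 8 of 9 cases, with none higher, where 26.9% of all genes tested were lower and 26.1% higher. In the whole list 22 of 28 tested genes were lower and 3 higher. Cyr61, the Ccn1 gene, had 9898, 10690.5 and 10942 normalised counts in DMSO and 2346, 2666 and 2818 with blebbistatin. That is a log2 change of -2.01 (SE 0.059, limma adjusted p 7.30e-11). Ctgf, the Ccn2 gene, went from 3137, 3400 and 3823 to 934, 1238 and 1252, by -1.60. Neither gene's groups overlap. With Y27632 both changes were small, -0.13 and -0.11, and only that of Cyr61 passed (adjusted p 0.0372). It no longer passed without DMSO replicate 2 (adjusted p 0.119) or 3 (0.116), or without Y27632 replicate 1 (0.0709) or 2 (0.162). Ddah1 fell under both inhibitors, from 1599, 1829 and 1808 to 687, 673 and 702 with blebbistatin (-1.34) and by -1.02 with Y27632. Rbms3, Crim1, Igfbp3 and Ptpn14 changed by -1.05, -0.85, -0.74 and -0.55 with blebbistatin. Asap1, with 4 member sites, had 5722, 5371 and 5308 in DMSO and 5662, 5392 and 5560 with blebbistatin, and its change of 0.02 did not pass (adjusted p 0.691). With Y27632, 5 of the 9 were lower and none higher, where 17.8% of all genes tested were lower and 18.1% higher. In the whole list of 28, 15 were lower and 5 higher.

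**Figure D5:**
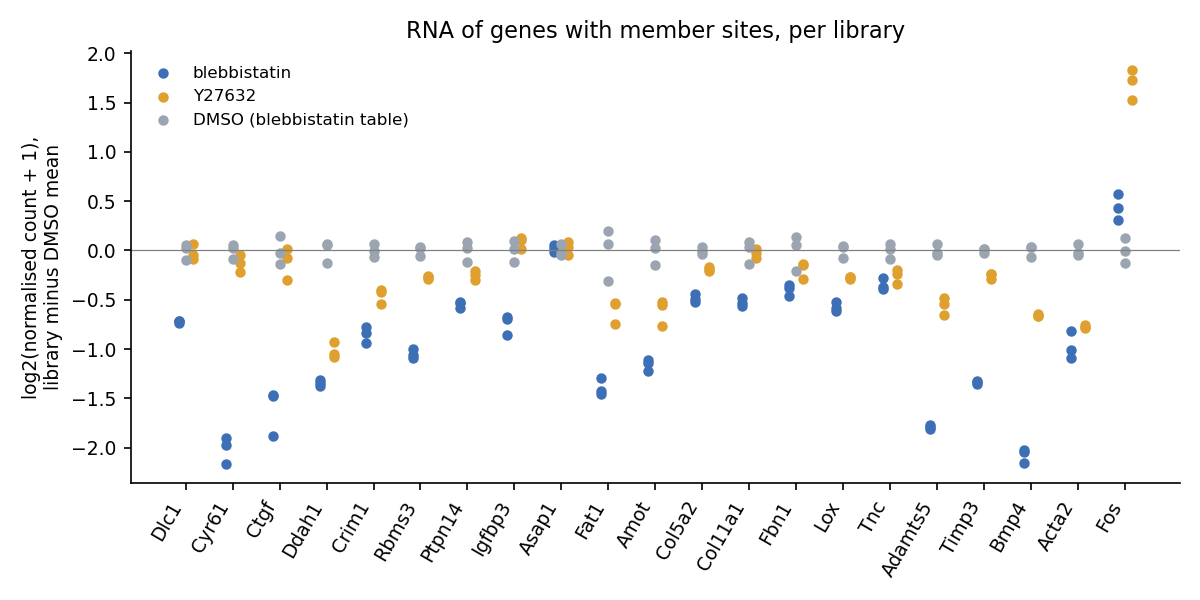
RNA of 21 genes with member sites in each library, as log2(normalised count + 1) minus the log2 of the DMSO mean + 1 of the same table (3 libraries per group, 1 point each). Cyr61 and Bmp4 lie near -2 with blebbistatin, Asap1 near 0 under both inhibitors, and Fos is highest with Y27632.

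In the Hippo list 3 of the 4 genes with member sites were lower with blebbistatin and none higher. In the whole list of 25 the counts were 13 and 7, and 26.9% of all genes tested were lower and 26.1% higher. With Y27632, 3 of the 4 were lower and 1 higher, and 11 and 6 in the whole list. Of all genes tested 17.8% were lower and 18.1% higher there. Counts over 4 genes say little of the list. Fat1 and Amot were lower under both inhibitors. Fat1 went from 19809, 21641 and 15294 normalised counts to 6913, 7707 and 7052 with blebbistatin, a log2 change of -1.37 (SE 0.095), and changed by -0.59 with Y27632. Amot changed by -1.15 and -0.61. Sav1 did not pass with blebbistatin (-0.05, adjusted p 0.221). Its change of 0.11 with Y27632 (adjusted p 0.0210) no longer passed without DMSO replicate 1 (0.0552) or Y27632 replicate 1 (0.0646) or 3 (0.0669), or with DESeq2 (0.0755). Acta2 was lower with both, from 4048, 4010 and 4322 to 2043, 1935 and 2349 with blebbistatin (-0.97) and to 2488, 2495 and 2531 with Y27632 (-0.77, against 4208, 4163 and 4491 in that table).

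Of the 7 matrix structure genes with member sites 5 were lower with blebbistatin and none higher, against 13 lower and 9 higher in the whole list of 29, and 26.9% lower and 26.1% higher over all genes tested. Lox changed by -0.57, Col11a1 by -0.52, Col5a2 by -0.48, Fbn1 by -0.39 and Tnc by -0.34. Fbln2 and Col14a1 did not pass. Lox had 202878, 221592 and 219414 normalised counts in DMSO and 140340, 149275 and 143297 with blebbistatin, so the groups were apart. Among proteases and inhibitors 4 of the 6 genes with member sites were lower and 1 higher, against 9 and 14 of 27 in the whole list. Adamts5 fell from 34852, 36966 and 34422 to 10239, 10108 and 10397, by -1.79 (SE 0.033, limma adjusted p 2.61e-12), and by -0.56 with Y27632. Timp3, an inhibitor of metalloproteinases, fell by 1.34 and by 0.26 on the log2 scale. Adamts12 was lower, at -0.33, and Adamts2 higher, at 0.12 (adjusted p 0.0136), which no longer passed without blebbistatin replicate 2 (0.0518). Adamts6 (-0.16, adjusted p 0.0303) lost its call without DMSO replicate 2 (0.100) or 3 (0.0529) or blebbistatin replicate 1 (0.0824) or 2 (0.0719), and with DESeq2 (0.118). Serpine2 did not pass.

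The 3 genes of the TGF-β and BMP list with member sites were lower with blebbistatin, where 26.9% of all genes tested were. The whole list was mixed, with 13 of 26 lower and 7 higher and a median of -0.07. Bmp4 went from 649, 608 and 650 normalised counts to 142, 155 and 153, by -2.07 (SE 0.074). Nog changed by -1.55, from a mean of 72.9 to 24.5 normalised counts, and Smad3 by -0.21. With Y27632 Bmp4 changed by -0.66 and Smad3 by 0.48, and Nog did not pass (-0.08, adjusted p 0.684). In the whole adhesion list 15 of 23 genes were lower with blebbistatin and 2 higher, where 26.9% and 26.1% of all genes tested were. Of its 5 genes with member sites 3 were lower and none higher. They were Tns3, Tns1 and Itgb1, at -0.76, -0.30 and -0.21, and Cdh11 rose with Y27632, by 0.29.

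The largest decreases among all linked genes with blebbistatin were led by Ptx3, a secreted pentraxin, with 14844, 15047 and 14607 normalised counts in DMSO and 1928, 2273 and 1939 with blebbistatin. Its log2 change was -2.86 (SE 0.054), and -0.69 with Y27632. Its 2 member sites, 63531 and 101572 bp upstream, went from 5.39 and 5.27 to 6.58 and 6.34 with doxycycline and to 5.35 and 5.23 with both drugs in the authors' deposited tables. Next came Cdh6, a cadherin, at -2.07, Bmp4, Cyr61, Lurap1l at -1.94, Sema3d, a semaphorin, at -1.89, Cdc42ep3, a Cdc42 effector, at -1.88, and 5430403N17Rik at -1.85. Increases were seen too. 1810011O10Rik rose from 26.8, 21.0 and 27.6 to 382, 320 and 306 normalised counts, by 3.69, and Dio2, a deiodinase, by 2.66. Rgs2, a regulator of G protein signalling, rose by 2.29, Olfml2a by 2.27, Akr1c14 by 2.20 and Abca1, a cholesterol exporter, by 2.16. Rasgef1a and Tmem26 rose by 1.89 and 1.87. The choice of these genes asked for a mean of at least 100 over both groups together. 1810011O10Rik, Dio2, Rasgef1a and Tmem26 had DMSO means of 25.1, 65.9, 58.7 and 94.0, so they met it only through blebbistatin. Likewise 5430403N17Rik, with a mean of 86.5 with blebbistatin, met it only through DMSO. The member site of Abca1, in an intron 6240 bp from the start, had a gain of 1.49 and a loss of -1.42 in the authors' deposited tables. The choice of sites required both a gain and a loss.

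With Y27632 the decreases were led by 5430403N17Rik (-1.55), Mgll, a monoglyceride lipase (-1.30), Cdc42ep3 (-1.12), Sdpr, the older name of Cavin2 (-1.07), and Ddah1. Sdpr had 2289, 2445 and 2386 normalised counts in DMSO and 1096, 1210 and 1092 with Y27632, and it changed by -1.07 with blebbistatin too. Ncald, Krt80 and Dlgap1 changed by -0.99, -0.96 and -0.92. Krt80, with a mean of 79.5 with Y27632, met the mean of 100 over both groups only through DMSO. Egr2 and Fos, transcription factors of the immediate-early response, were among the increases. Egr2 rose from 146, 132 and 146 to 823, 725 and 855, by 2.50 (SE 0.081, limma adjusted p 7.43e-10), Ptgs2, a prostaglandin synthase, by 2, Ereg, an EGF receptor ligand, by 1.75, and Fos by 1.70. Ryr3, Dusp6, Kcnh1 and Abca1 rose by 1.51, 1.5, 1.31 and 1.29. With blebbistatin Egr2 rose by 1.02 and Fos by 0.44, while Ereg did not pass (-0.15, adjusted p 0.219). Ptgs2 rose by 0.25 with blebbistatin (adjusted p 0.0282), which did not pass without DMSO replicate 2 (0.132) or blebbistatin replicate 3 (0.121). The member sites of Egr2, Ptgs2, Ereg and Fos had losses of -1.24, -1.29, -1.49 and -1.30 with blebbistatin in doxycycline in the authors' deposited tables. The choice of sites required a listed loss, so these values are a description.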

How the data were processed

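Site tables hold log2 group means, log2 folds, p-values and FDRs that the authors deposited, with columns in the style of DiffBind and HOMER, per the file headers. The submitters' processing notes name Bowtie2, MACS2, DiffBind, HOMER, HISAT2, featureCounts, DESeq2, SAMtools, Picard and the build mm10, without roles. No values per library are in these tables, so no SD or test of sites was computed. All listed FDRs are 0.05 or less, and the doxycycline experiment lists no absolute log2 fold under 1. How many sites the authors tested was computed from FDR, rank and p-value, taking the FDR as Benjamini-Hochberg. The reference column of the doxycycline table is headed as blebbistatin without doxycycline. At 13 shared sites it differed from neither drug by -0.13 (SD 0.0044) and from blebbistatin alone by 1.12 (SD 0.184), and it was read as neither drug. Site coordinates are as deposited. Motif positions were converted to count from 1. The GC fraction and GC percent of ATAC sites are columns of the authors' deposited table. Distances to a start and motif scores are the authors' annotation, per the file headers.

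RNA tables hold a signal per gene, counts that the authors deposited after division by a size factor per library. Whole reads recovered from the values (100% whole within 0.1 read, with DMSO replicate 1 taken from the Y27632 table) gave depths of 23375386 to 37061737 reads. Genes with a mean of at least 10 normalised counts were tested with limma 3.58.1 (trend, R 4.3.3) on log2(normalised count + 1), Benjamini-Hochberg adjusted over all genes and called under 0.05. Changes given are differences on this scale and understate those of low genes. edgeR 4.0.16 and DESeq2 1.42.0 on recovered reads, other pseudocounts and filters, and leaving out each library were alternatives. The fits were tested on simulated data. Sites were linked to genes by the authors' nearest gene. Genes named are those with 4 or more sites, members of 8 gene lists, and per inhibitor the 8 largest decreases and increases. These last were taken among called genes with a mean of at least 100 over both groups together and no overlap of groups. Named sites are the 5 largest gains and losses, sites of list genes, and some of those in both ATAC tables. The sites, lists and tests were chosen with earlier results of these data known. Promoter sequences are from RefSeq (GRCm38.p6). Sample columns without a matching label numbered 0.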

Additional observations from a re-analysis of the deposited data

How the results depend on the processing

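Requiring 50% overlap of both sites left 1927 member sites and an FDR of at most 0.01 left 1855, but an absolute log2 fold of at least 1.5 in both tables left 73. At an FDR of at most 0.01 in the other table, the share of members listed was 2.23% for ATAC blebbistatin and 0.571% for ATAC Y27632. For blebbistatin alone, whose overlap is not read as a result, it was 3.68%. The shares of all sites tested at that FDR were not computed, so these values have no background beside them. Restricting TEAD matches to GGAATG gave 44% and to TGGAATGT 16%. The planned motif shares in windows around all member sites were not run, since no genome was used here.

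The counts of linked genes called lower and higher, 420 and 243 with blebbistatin and 295 and 214 with Y27632, stayed within 1.5 times under the other pseudocounts, filters and tools and without each library. Links of at most 50 kb gave 260 and 141 of 621 tested genes with blebbistatin (41.9% and 22.7%, median -0.1075). With Y27632 they gave 179 and 133 of 621 (28.8% and 21.4%). Genes with 2 or more sites gave 102 and 29 of 185 (55.1% and 15.7%, -0.2447) and 75 and 32 of 184 (40.8% and 17.4%, -0.1125). Members in introns gave 234 and 125 of 548 (42.7% and 22.8%, -0.0973) and 171 and 100 of 548 (31.2% and 18.2%, -0.0585). Intergenic members gave 213 and 124 of 512 (41.6% and 24.2%, -0.1066) and 142 and 124 of 506 (28.1% and 24.5%, -0.0224). Over all genes tested 26.9% and 26.1% were called with blebbistatin and 17.8% and 18.1% with Y27632. These sets hold fewer genes. A filter at a mean of 50 gave a median of -0.0954 with blebbistatin. Leaving out 1 library at a time gave medians from -0.1043 to -0.0780 with blebbistatin and from -0.0472 to -0.0274 with Y27632, the last without DMSO replicate 2.

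Same-numbered libraries did not deviate together (correlations of -0.0605, 0.0225 and 0.0127 with blebbistatin and -0.0946, -0.000955 and -0.0195 with Y27632). With the replicate number as a block, 408 and 233 of 1009 linked genes were called lower and higher with blebbistatin. With Y27632 it was 269 and 188 of 1004. The share of all genes called with this block is not given here. Of the named genes, Adamts6 with blebbistatin (adjusted p 0.0546) and Sav1 with Y27632 (0.0570) lost their call under the replicate block in limma, and both also with DESeq2.

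Some uncalled changes turned sign without 1 library. Over the left-out libraries the log2 change with blebbistatin ran from -0.00177 to 0.0523 for Asap1, -0.0286 to 0.104 for Col14a1, -0.0940 to 0.0444 for Itgb8 and -0.0445 to 0.0590 for Ptger4. With Y27632 it ran from -0.0207 to 0.0451 for Adamts6, -0.00744 to 0.0592 for Asap1, -0.0875 to 0.0229 for Col11a1, -0.0668 to 0.00949 for Dlc1, -0.0299 to 0.00560 for Fbln2, -0.413 to 0.0932 for Fgf9 and -0.0319 to 0.0459 for Tns3. The site tables give no depth per library.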
